A study of Mus musculus with 4 samples.

Results

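Bone morphogenetic proteins (BMPs) are secreted dimers that bind paired type I and type II receptors, which phosphorylate Smad1, Smad5 and Smad9 and switch on target genes such as Id1, Id2 and Id3. Secreted antagonists bind the ligands outside the cell and keep them from the receptors. In skeletal muscle, excess BMP signalling after injury leads to cartilage and then bone outside the skeleton, which is called heterotopic ossification (HO). Described here are 10 genes of this system, 6 ligands (Bmp2, Bmp4, Bmp5, Bmp6, Bmp7 and Gdf5) and 4 antagonists (Nog, Grem1, Chrdl1 and Bmper), found by their symbols among the 32285 features of each table. All 10 were present as features, and all 10 had at least 1 UMI (unique molecular identifier, a count of 1 captured RNA molecule) in at least 1 section.

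RNA was captured on barcoded spots under fresh frozen sections of mouse tibial muscle. All mice carried the Nse-Bmp4 transgene on the C57BL/6 strain and were 6 to 8 weeks old. The transgene places a murine Bmp4 cDNA behind the rat promoter of neuron-specific enolase (gene Eno2), which is active in neurons, and ahead of a viral polyadenylation signal. It was present in the uninjured section too. One section was from uninjured muscle (day 0), and the others, 1 per day, from muscle taken 1, 3 and 7 days after cardiotoxin, a snake venom protein that lyses myofibres. The labels state that 3 muscles were mixed for a group, and how these map to a section is not given in the sources used here. With 1 section per day there is no spread between animals, no test was run, and every interval below covers counting error only. Reads of the transgene and of the mouse's own Bmp4 gene cannot be told apart in these tables, and how much transgene RNA is counted as Bmp4 was not tested.

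The sections held 2107, 2667, 3029 and 3032 spots at days 0, 1, 3 and 7, with median depths of 21029, 6322, 16087 and 12119.5 UMIs per spot. Section totals ran from 16777832 UMIs at day 1 to 56113066 at day 3. All 11 adult myofibre markers were detected in every section, and their share of all UMIs was 22.7%, 11.9%, 7.48% and 13.5% in order of days. The median gene stood 0.15, 0.58 and 0.65 log2 units above day 0 at days 1, 3 and 7 when levels were scaled to section totals. Ratios of CPM (UMIs per 1000000 UMIs of the section) are read beside those medians. In such sections fewer cells of a type and less RNA per cell cannot be told apart. A gene is counted as higher or lower where its CPM differed 2-fold or more and both sections together held at least 20 UMIs. A gene with fewer than 3 UMIs was entered at 3 UMIs, and its ratio is then given without a counting interval.

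The 3 promoters printed here show the sequence context of the genes on which the results turn. Bmp4 is shown because the transgene carries the rat enolase promoter in place of this one, Bmper because its day 3 level stood furthest above day 0 among the antagonists with reads in every section, and Grem1 because it was read almost only at day 7. Each run is the 250 bases before the RefSeq start on the gene's strand in GRCm38.p6 (mm10). Capitals mark GGCGCC, a GC-rich sequence that BMP Smads can bind.
Bmp4: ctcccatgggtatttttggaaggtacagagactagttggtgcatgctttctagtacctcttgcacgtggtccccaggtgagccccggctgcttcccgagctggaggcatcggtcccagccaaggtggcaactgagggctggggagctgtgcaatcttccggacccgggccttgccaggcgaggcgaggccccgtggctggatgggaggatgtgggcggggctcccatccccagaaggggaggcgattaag
Bmper: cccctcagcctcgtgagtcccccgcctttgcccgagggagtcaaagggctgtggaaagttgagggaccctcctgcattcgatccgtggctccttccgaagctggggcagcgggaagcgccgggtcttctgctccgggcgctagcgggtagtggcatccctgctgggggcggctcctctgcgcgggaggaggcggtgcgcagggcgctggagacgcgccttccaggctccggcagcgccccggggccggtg
Grem1: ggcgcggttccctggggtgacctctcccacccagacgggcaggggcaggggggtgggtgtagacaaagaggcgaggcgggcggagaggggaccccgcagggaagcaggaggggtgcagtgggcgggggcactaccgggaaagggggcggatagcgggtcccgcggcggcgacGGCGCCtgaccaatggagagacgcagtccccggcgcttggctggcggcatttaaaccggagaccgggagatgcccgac
The Bmp4 run is chr14:46390670-46390919 on the minus strand, the Bmper run chr9:23222826-23223075 on the plus strand, and the Grem1 run chr2:113758649-113758898 on the minus strand. Their GC content was 63.2%, 71.6% and 72%. GGCGCC, which reads the same on both strands, occurred 1 time before Grem1 and not before Bmp4 or Bmper. The TATA sequence TATAAA, searched on both strands, occurred in none of the 3. Over 32851 RefSeq promoter windows of the same length, 9.59% held GGCGCC and 12.4% held TATAAA. Promoter sequence was given for 5 of the 10 genes, and a match describes the letters only.

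The ligands as a group were lower in the day 1 section than in uninjured muscle, and by day 7 none with enough UMIs differed 2-fold from day 0 by section totals. At day 1, 4 of the 5 ligands with enough UMIs were 2-fold or more lower, against 11.9% of all genes tested. At day 3, 2 of 6 were lower, against 7.59% of all genes, and 1 was higher, against 32.5%. At day 7, 0 of 5 were lower and 0 were higher, where 1.77% and 31.3% of all genes were. Bmp7 at day 1 and Gdf5 at day 3 had 0 UMIs in one of the compared sections and passed the filter through the other alone, so their direction was fixed by it. Without them 3 of 4 were lower at day 1, and 2 of 5 lower and 0 higher at day 3. The median log2 ratio of the ligands with reads in both sections was then -1.19, -0.93 and 0.00 at days 1, 3 and 7, beside the medians of all genes given above. Scaled by TMM factors, which set the typical gene equal between sections, 5 ligands were lower at day 3, against 15.7% of all genes on that scale, and 1, Bmp7, at day 7, against 5.96%.

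Bmp4, the ligand encoded by the transgene as well as by the mouse, had 416, 45, 280 and 397 UMIs in the 4 sections in order of days. These gave 9.48 CPM (95% interval 8.59 to 10.4), 2.68 CPM (1.96 to 3.59), 4.99 CPM (4.42 to 5.61) and 9.49 CPM (8.58 to 10.5). The intervals of days 0 and 7 cover each other almost exactly, and those of days 1 and 3 lie below both and apart from each other. The day 1 level was 0.283 of day 0 (0.203 to 0.385) and the day 3 level 0.526 (0.451 to 0.614). By TMM the log2 ratios of Bmp4 to day 0 were -2.03, -1.47 and -0.61, so on that scale the day 7 level too was below day 0.

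Eno2, the mouse gene that shares its promoter type with the transgene, had 28, 26, 85 and 204 UMIs, or 0.638, 1.55, 1.51 and 4.88 CPM. Its order over the days differed from that of Bmp4, with the highest level at day 7 and the lowest at day 0. The day 7 level was 7.64 times that of day 0 (5.13 to 11.8), where Bmp4 stood at 1.00 times (0.870 to 1.15). The ratio of Eno2 to Bmp4 was not used as a measure of the transgene.

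Bmp2, a ligand used in bone formation, had 180, 33, 159 and 162 UMIs, or 4.10, 1.97, 2.83 and 3.87 CPM. Its day 1 level was 0.479 of day 0 (0.320 to 0.698), and the intervals of days 0 and 7 overlapped. Bmp5 had 175, 27, 69 and 217 UMIs, or 3.99, 1.61, 1.23 and 5.19 CPM. It was the one ligand with reads in every section that was 2-fold or more lower at both days 1 and 3, at 0.403 (0.259 to 0.607) and 0.308 (0.230 to 0.410) of day 0. The day 7 level of Bmp5 was 4.22 times that of day 3 (3.20 to 5.61) and 1.30 times that of day 0 (1.06 to 1.60), with a log2 ratio to day 0 of -0.23 by TMM.

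Bmp6, a ligand made by endothelial cells among others, had 282, 88, 259 and 382 UMIs, or 6.43, 5.25, 4.62 and 9.13 CPM. Its day 1 level was 0.816 of day 0 (0.635 to 1.04) by section totals. On that scale, among the ligands with enough UMIs, Bmp6 was the one whose day 1 level was within counting error of day 0. TMM shifted the day 1 log2 ratio by -0.21, which put the interval of Bmp6 below day 0 as well. Its day 7 level was 1.42 times day 0 (1.21 to 1.66) by section totals and at a log2 ratio of -0.10 by TMM. Bmp7 was sparse, with 49, 0, 13 and 29 UMIs, or 1.12, 0, 0.232 and 0.693 CPM. With day 1 entered at 3 UMIs, Bmp7 was 6.25-fold lower at day 1 than at day 0, a value without a counting interval. At day 3 it was 0.207 of day 0 (0.103 to 0.388).

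Gdf5, a ligand of joint and early cartilage formation, ran the other way from the remaining ligands. It had 0, 3, 58 and 11 UMIs at days 0, 1, 3 and 7, or 0, 0.179, 1.03 and 0.263 CPM. With day 0 entered at 3 UMIs, or 0.0684 CPM, the day 3 level was 15.1-fold higher, a value without a counting interval. Reads were found in 52 of 3029 spots at day 3, with at most 5 in 1 spot, and the day 7 level was 0.254 of day 3 (0.120 to 0.490).

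**Figure D1:**
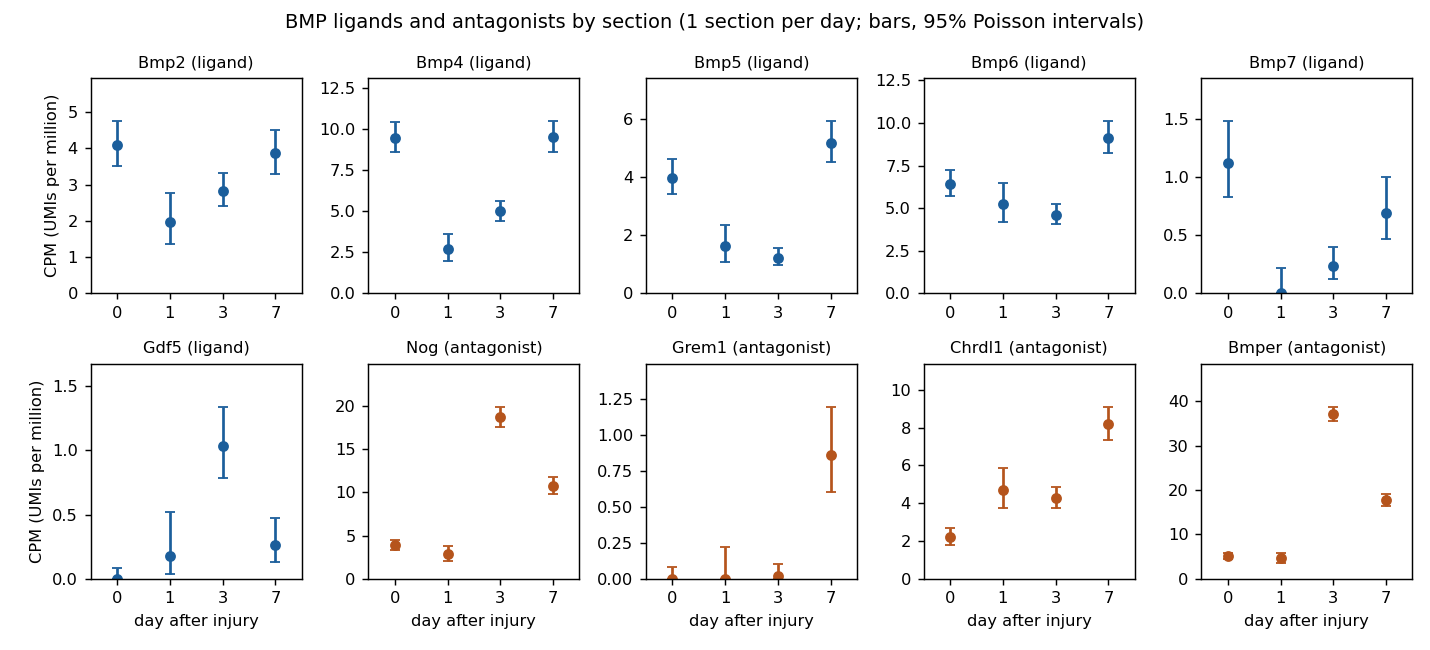
Level of each of the 10 genes in CPM (vertical axis, from 0, scaled per gene) in the 4 sections (horizontal axis, day after injury); points are section levels, bars exact 95% Poisson intervals, blue for ligands and orange for antagonists. Bmp4 sits at 9.48 and 9.49 CPM at days 0 and 7 with a low of 2.68 at day 1, whereas Bmper and Nog are highest at day 3 (37.1 and 18.7 CPM).

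By section totals Nog, Chrdl1 and Bmper stood 2-fold or more above day 0 at day 7, each with its own course, and Grem1 was read almost only on that day. At day 1, 1 of 3 with enough UMIs was 2-fold or more higher than at day 0, against 16.5% of all genes, at day 3 2 of 3, against 32.5%, and at day 7 4 of 4, against 31.3%. None was 2-fold lower on any of these days. Grem1 entered the day 7 count through its day 7 UMIs alone, with 0 at day 0, so it could only be counted as higher, and without it the count was 3 of 3. The median log2 ratio of the antagonists with reads in both sections was -0.13, 2.26 and 1.82.

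Bmper, a secreted BMP-binding protein that can block or favour signalling by context, had 221, 77, 2080 and 742 UMIs. These gave 5.04 CPM (4.40 to 5.75), 4.59 CPM (3.62 to 5.74), 37.1 CPM (35.5 to 38.7) and 17.7 CPM (16.5 to 19.1). Days 0 and 1 did not differ beyond counting error, day 3 was the highest and day 7 lay between. The day 3 level was 7.36 times day 0 (6.40 to 8.49) and 8.08 times day 1 (6.43 to 10.3). By TMM the log2 ratios to day 0 were 2.33 at day 3 and 1.21 at day 7.

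Nog encodes noggin, which caps the receptor-binding faces of BMP dimers, and had 171, 48, 1051 and 451 UMIs. Its levels were 3.90 CPM (3.34 to 4.53), 2.86 CPM (2.11 to 3.79), 18.7 CPM (17.6 to 19.9) and 10.8 CPM (9.81 to 11.8), the same order over the days as Bmper. The day 3 level was 4.81 times day 0 (4.08 to 5.68). At day 7 it was 2.77 times day 0 (2.31 to 3.32) by section totals, and 0.86 log2 units above day 0 by TMM, which is less than 2-fold.

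Chrdl1 encodes chordin-like 1, a relative of chordin with cysteine-rich ligand-binding repeats, and had 96, 79, 240 and 342 UMIs. Its levels were 2.19 CPM (1.77 to 2.67), 4.71 CPM (3.73 to 5.87), 4.28 CPM (3.75 to 4.85) and 8.18 CPM (7.33 to 9.09). Unlike Bmper and Nog it was, by section totals, already 2.15 times day 0 (1.58 to 2.93) at day 1. On that scale it did not differ between days 1 and 3 beyond counting error, and was highest at day 7 at 3.74 times day 0 (2.97 to 4.74). By TMM the day 1 log2 ratio was 0.90, just under 2-fold. Grem1 encodes gremlin 1, which binds BMP2 and BMP4 among others, and had 0, 0, 1 and 36 UMIs. Its day 7 level of 0.861 CPM (0.603 to 1.19) was 12.6-fold higher than day 0 entered at 3 UMIs, a value without a counting interval.

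**Figure D2:**
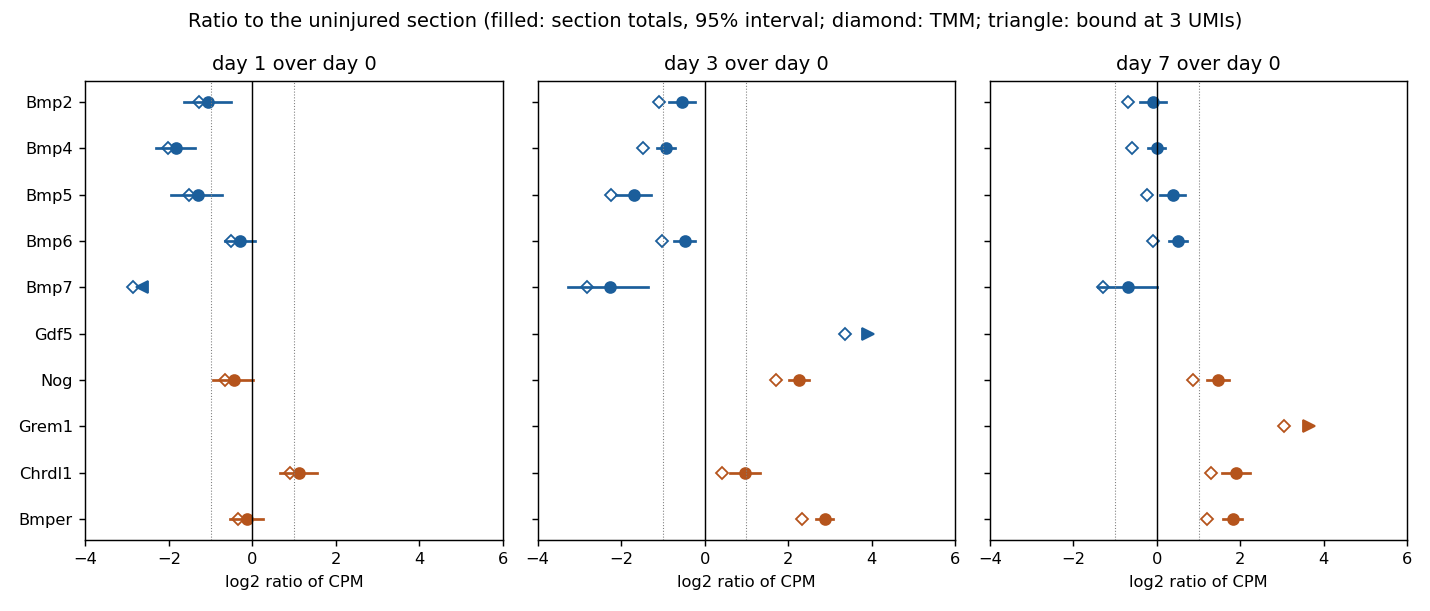
Log2 ratio of CPM to day 0 (horizontal axis) for each gene (rows) at days 1, 3 and 7. Filled points use section totals with 95% counting intervals, and open diamonds use TMM factors. Triangles are ratios with 3 UMIs as the floor, drawn without a counting interval. Dotted lines mark 2-fold, and genes with too few UMIs have no point. Ligands other than Gdf5 lie at or left of 0 at days 1 and 3, and the antagonists lie right of 0 at day 7 on both scales.

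The injured sections differed among themselves too. From day 1 to day 3, 3 of 8 members with enough UMIs (Gdf5, Nog and Bmper) were 2-fold or more higher, against 19.4% of all genes, and 0 were lower, against 2.46%. From day 3 to day 7, 3 of 10 (Bmp5, Bmp7 and Grem1) were higher, against 14.8%, and 2 (Gdf5 and Bmper) were lower, against 11.1%. Bmper at day 7 was 0.479 of day 3 (0.439 to 0.521) and Nog 0.576 (0.514 to 0.643), while Chrdl1 was 1.91 times (1.62 to 2.26) and Bmp4 1.90 times (1.63 to 2.22) its day 3 level.

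Summed over members within a section, antagonist UMIs per ligand UMI do not depend on how sections are scaled, and only the change between sections is read. There were 488 antagonist and 1102 ligand UMIs at day 0, a ratio of 0.443 (0.397 to 0.493). The ratio was 1.04 (0.851 to 1.27) at day 1, with 204 and 196 UMIs, then 4.02 (3.73 to 4.35) at day 3, with 3372 and 838, and 1.31 (1.22 to 1.41) at day 7, with 1571 and 1198. The 3 injured sections were thus all above day 0, with day 3 apart from the others and days 1 and 7 overlapping. Bmper gave 2080 of the 3372 antagonist UMIs at day 3, and without it the ratios were 0.242, 0.648, 1.54 and 0.692. Without Bmp4, whose UMIs include any read from the transgene, they were 0.711, 1.35, 6.04 and 1.96, with day 3 highest and day 0 lowest in each case.

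**Figure D3:**
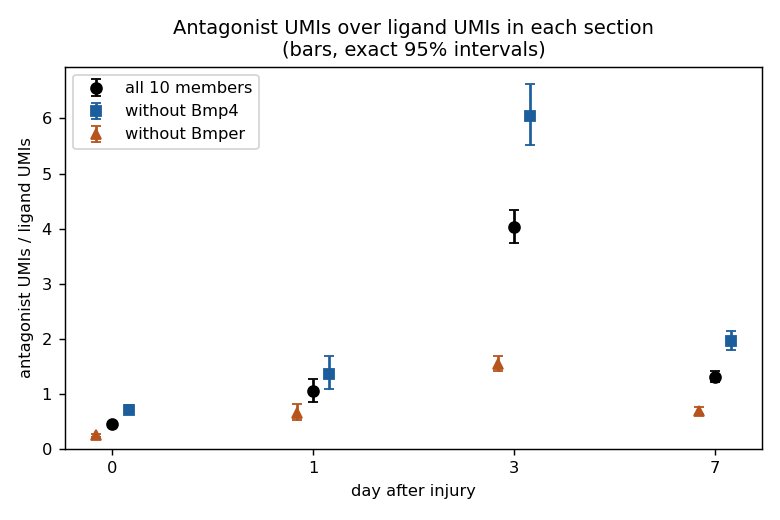
Antagonist UMIs divided by ligand UMIs (vertical axis, from 0) in each section (horizontal axis, day after injury) for all 10 genes, without Bmp4 and without Bmper; bars are exact 95% intervals. With all 10 genes the ratio is 0.443, 1.04, 4.02 and 1.31 in order of days.

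Few spots held a read of any one member, so spots were compared at a common depth. With each spot thinned to 2000 UMIs, which left out 17, 513, 9 and 84 shallower spots, a Bmper read was expected in 1.11%, 0.995%, 6.24% and 3.25% of spots at days 0, 1, 3 and 7. Unthinned, the shares were 9.21%, 2.70%, 37.6% and 18.6%. For Nog the thinned shares were 0.764%, 0.537%, 3.93% and 2.38%, and the unthinned ones 6.07%, 1.42%, 24.3% and 11.8%. Both genes thus had the same order over the days in spots as in CPM. For Bmp4 the thinned shares were 1.95%, 0.546%, 1.18% and 2.08%, and the unthinned ones 15.9%, 1.57%, 8.32% and 10.5%. Counts in single spots reached 9 for Nog at day 0 and 10 for Bmper at day 3, and the part of free RNA in these reads was not tested. Of 24 pairs of a ligand and an antagonist, 0 were expected in 10 or more spots after thinning on any day, so no pair was described at matched depth. Unthinned, 123 of 3029 spots at day 3 held both Bmp6 and Bmper, where 233 held Bmp6 and 1140 held Bmper. Spots differ in depth, so this number was not read as a shared location.

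Where the members were read within a section was described by regions, which are groups of spots with similar RNA. The members and the other BMP pathway genes were left out of the grouping, which gave 6, 8, 9 and 8 regions at days 0, 1, 3 and 7. Regions are called by their leading genes, and a spot can hold several cells. Spots of 1 section are no replicates, so the ratios of a region to the rest of its section are descriptions. The regions richest in a marker list are described first, and others were picked after the members' levels in them were seen.

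Chrdl1 was highest, on every day, in the region with the most adipocyte marker RNA. At day 0 that region had 91 spots led by Pck1, Cidec, Hp, Cyp2e1 and Cfd, genes of fat cells, and held 28 of the 96 Chrdl1 UMIs, at 20.3 CPM against 1.60 CPM in the rest. At days 1, 3 and 7 Chrdl1 stood at 31.7, 32.4 and 31.5 CPM in 147, 75 and 367 spots, against 3.60, 3.96 and 5.92 CPM in the rest. The ratios were 12.7 (7.87 to 19.997), 8.82 (5.08 to 14.7), 8.18 (4.90 to 12.9) and 5.32 (4.22 to 6.69). The day 1 region was led by Actg2, Ubd, P2rx1, Igfbp2 and Cnn1, genes of smooth muscle among them, and also held the most Schwann cell, stromal and endothelial marker RNA of its section. The regions at days 3 and 7 were led by Wfdc21, Cfd, Hp, Pck1 and Cidec and by Cyp2e1, Cfd, Nnat, Cidec and Hp.

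Inside these regions the Chrdl1 intervals of all 4 days overlapped, which does not show that the levels were equal. In the rest of the section Chrdl1 was 1.60 CPM (1.24 to 2.03) at day 0 and 5.92 CPM (5.18 to 6.75) at day 7. All 7 adipocyte markers were detected in every section, and their summed level was 229, 270, 166 and 215 CPM. The list's level thus differed little between days 0 and 7, whereas Chrdl1 was 3.74 times as high at day 7. The part of fat cells in that difference was not tested. When the 4 sections were clustered together, the day 3 region with the most adipocyte RNA held 1071 spots, and Chrdl1 was 0.785 of the rest there.

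Some other members were also high in these regions at days 0, 3 and 7. At day 0, 3 of 7 members with enough UMIs (Bmp5, Nog and Chrdl1) were 2-fold or more higher in the region, against 16.2% of all genes, and at day 1 2 of 4 (Bmp4 and Chrdl1), against 38.3%. At day 3, 4 of 7 (Bmp2, Bmp4, Bmp5 and Chrdl1) were, against 11.9%, and at day 7 4 of 9 (Bmp2, Bmp4, Bmp7 and Chrdl1), against 7.32%. The day 1 count of Bmp4 rests on 4 UMIs, with a ratio to the rest of 2.38 (0.618 to 6.56), which is within counting error. With a finer grouping 1 member was counted at day 0 and 1 at day 1. Bmp4 stood there at 13.8, 6.04, 16.2 and 22.8 CPM, from 19, 4, 10 and 84 UMIs. At day 7 its ratio to the rest was 2.78 (2.16 to 3.55), and that of Bmp2 was 3.29 (2.23 to 4.75) at 10.6 CPM. The day 7 region also held the most stromal and endothelial marker RNA of its section. The day 3 region held the most stromal, tendon, endothelial and Schwann cell marker RNA of its section, at 4954, 3106, 454 and 358 CPM, or 2.64, 4.45, 1.70 and 2.81 times the rest. The part of these cell types in the members' levels was not tested.

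Nog at day 0 was highest at 18.1 CPM (11.6 to 26.9) in 57 spots led by Crym, Kcne1l, Colq, Ufsp1 and Chrna1, the last being a subunit of the muscle acetylcholine receptor and Colq the anchor of acetylcholinesterase at the neuromuscular junction. That region held 24 of 171 Nog UMIs, 5.23 times (3.24 to 8.08) the level in the rest, and was the region with the most Schwann cell marker RNA, at 852 CPM, and the most adult myofibre RNA. Of the 7 members with enough UMIs there, Nog was the 1 counted as higher, against 3.75% of all genes. The fat-gene region of day 0 held 18 more Nog UMIs at 13.1 CPM. At day 1, 19 of 48 Nog UMIs lay in 296 of the 2667 spots, led by Inmt, Pck1, Cyp2e1, Cidec and Ces1d, at 15.5 CPM, 8.30 times (4.40 to 15.3) the rest. In those spots 5 of 7 members (Bmp5, Bmp6, Nog, Chrdl1 and Bmper) were 2-fold or more higher, against 7.11% of all genes. Their median depth was 3934.5 UMIs.

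At day 3 Bmper and Nog, both far above day 0 in the section as a whole, were highest in different areas. Bmper was highest in 454 spots led by Spp1, Rsad2, Adam8, Cd5l and Slfn4, at 56.1 CPM (51.5 to 61.0), and in 319 spots led by Thbs2, Cthrc1, Aspn, Tubb2b and Mest, at 50.4 CPM (46.1 to 55.1). The first set of leading genes belongs largely to macrophages, and the second includes genes of matrix-making fibroblasts. The second region also held the most regenerating muscle marker RNA of its section, at 1692 CPM, 2.51 times the rest. Its stromal marker RNA was 1.15 times the rest, and the part of each cell type in the levels of Bmper and Nog was not tested. These 2 regions held the most macrophage marker RNA, 14346 and 14705 CPM, and the least adult myofibre RNA. Nog was low there, at 8.70 CPM (6.94 to 10.8) and 6.76 CPM (5.24 to 8.58), 0.418 (0.330 to 0.522) and 0.317 (0.244 to 0.407) of the rest. In each of the 2 regions 2 of 8 members (Gdf5 and Nog) were 2-fold or more lower, against 7.74% and 6.83% of all genes, and 0 were higher, against 17.3% and 12.7%.

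Nog was highest at day 3 in 453 spots led by Gm4841, Osgin1, Mmp3, F830016B08Rik and Plcd4, at 33.4 CPM (28.2 to 39.2). It was 29.0 CPM (26.0 to 32.4) in 686 spots led by Rcan1, Otud1, Prkg1, Myl3 and Ankrd2, and 28.0 CPM (24.9 to 31.4) in 395 spots led by the slow-fibre genes Myh7, Sln, Tnnc1, Tnni1 and Tnnt1. The intervals of these 3 regions overlapped. In the 348 spots richest in adult myofibre RNA, led by Odf3l2, Amd1, Ddit4l, Mylk4 and Smox, both genes were at their lowest, Nog at 5.28 CPM (3.22 to 8.15), which overlapped its level in the macrophage-rich regions, and Bmper at 14.8 CPM (11.2 to 19.2). Bmper UMIs per Nog UMI, read only for its change between regions, were 6.45 (5.12 to 8.22) and 7.46 (5.77 to 9.78) in the 2 regions rich in macrophage RNA, and 0.631 (0.482 to 0.822) in the region highest in Nog.

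The same contrast was seen without the regions, in 4 equal sets of the day 3 spots ordered by their share of adult myofibre UMIs, a split chosen after the values were seen. From the lowest to the highest set Bmper went from 54.5 to 34.1, 26.1 and 15.5 CPM. Nog was 8.27, 26.65, 24.1 and 20.6 CPM, lowest where Bmper was highest. Chrdl1 went from 6.36 to 4.12, 3.21 and 0.894 CPM.

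**Figure D4:**
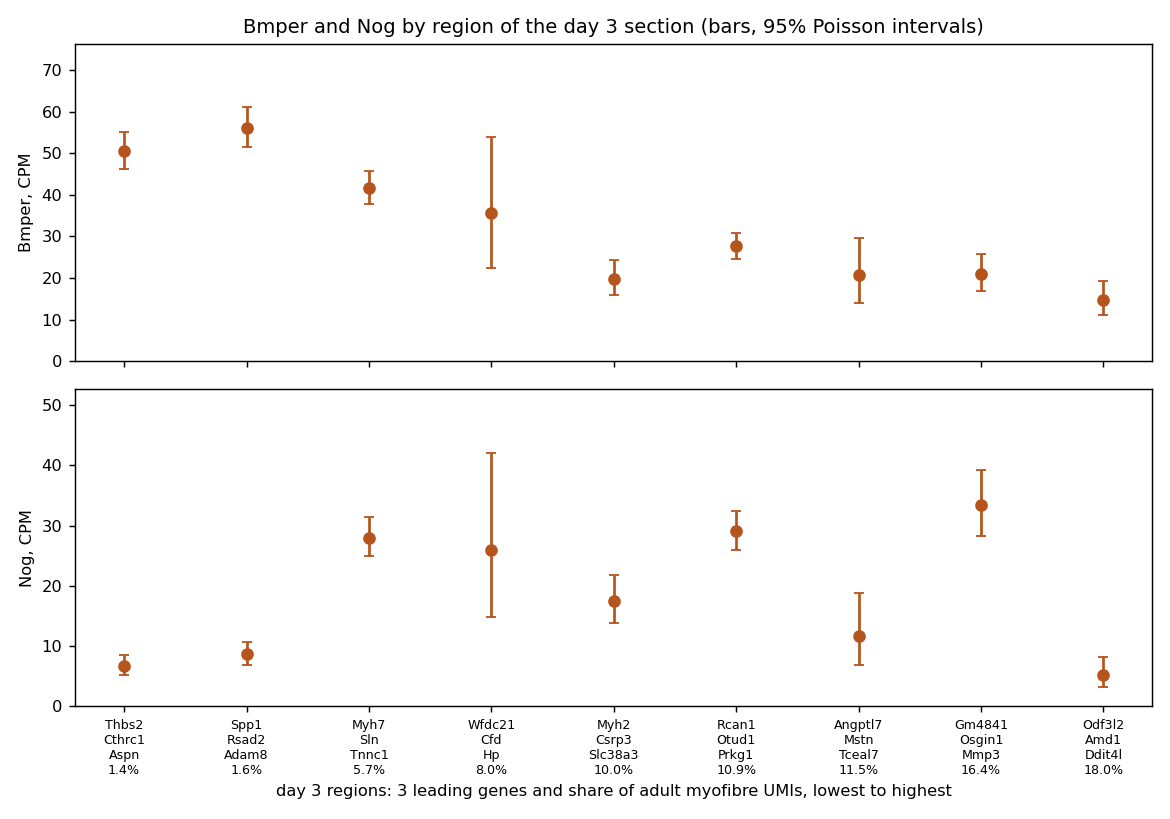
Bmper (upper) and Nog (lower) in CPM, axes from 0, in the 9 regions of the day 3 section, ordered from left to right by the share of adult myofibre UMIs; labels give 3 leading genes and that share, bars are 95% Poisson intervals. The 2 leftmost regions have the highest Bmper (50.4 and 56.1 CPM) and low Nog (6.76 and 8.70 CPM).

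Gdf5 at day 3 was highest in regions led by slow-fibre genes or by Rcan1, both also high in Nog. Of its 58 UMIs, 27 were in the region led by Myh7 and Sln, 3.77 times (2.17 to 6.53) the rest, and 20 in the region led by Rcan1 and Otud1, 2.12 times (1.17 to 3.74) the rest. Of all genes with at least 20 UMIs in the section, 2.08% and 1.68% were 2-fold or more higher in the same regions. These shares were not matched to genes as sparse as Gdf5. The 2 macrophage-rich regions held 2 and 4 Gdf5 UMIs, and so few also lay in the region highest in Nog, with 2.

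Grem1 at day 7 was highest in the region with the most cartilage marker RNA. In 287 spots led by Col10a1, Col9a1, Col9a3, Col2a1 and Slc13a5, which held 10957 CPM of the cartilage list against 847 in the rest, Grem1 had 18 of its 36 UMIs. Its level there was 4.46 CPM (2.64 to 7.05) against 0.476 in the rest, a ratio of 9.37 (4.60 to 19.1). A further 10 UMIs lay in the 207 spots next highest in cartilage RNA, led by Isg15, Megf6, Mdk, Fads2 and Ecrg4, at 2.29 CPM (1.10 to 4.22). The other 6 regions held between 0 and 3 Grem1 UMIs each. The region led by Col10a1 also held the most osteogenic, hypertrophic cartilage and tendon marker RNA of its section. These stood at 1837, 1328 and 1656 CPM, or 10.7, 10.2 and 2.75 times the rest. The part of each cell type in the level of Grem1 was not tested.

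Of the 8 members with enough UMIs in the Col10a1 region, Grem1 was the 1 counted as 2-fold higher, against 28.1% of all genes, and 0 were lower, against 8.88%. Chrdl1 was 1.91 times the rest (1.42 to 2.54) and Bmper 1.36 times (1.08 to 1.69), and Nog, at 0.862 times (0.601 to 1.203), was within counting error of it. Bmp4 was 5.95 CPM against 9.87 in the rest, 0.603 times (0.381 to 0.911). Gdf5 had 5 of its 11 UMIs there, too few for the count.

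**Figure D5:**
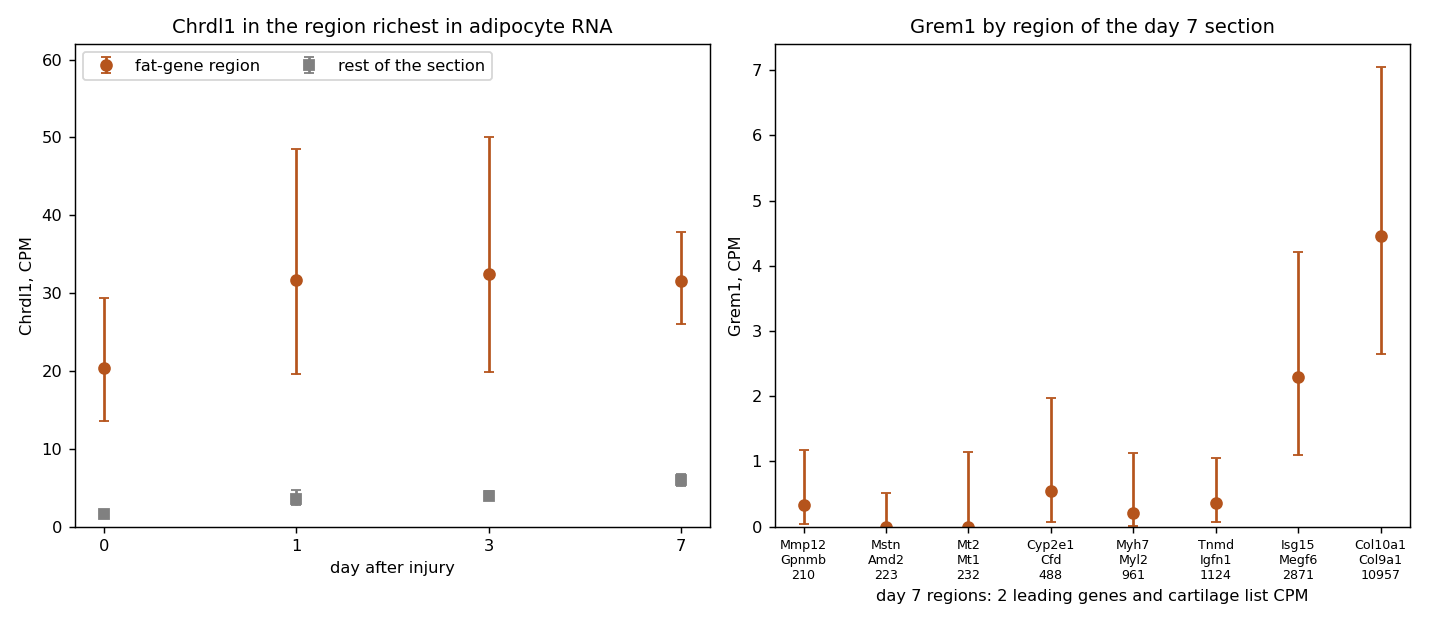
Left: Chrdl1 in CPM (axis from 0) in the region of each section with the most adipocyte marker RNA and in the rest of that section, by day after injury. Right: Grem1 in CPM (axis from 0) in the 8 regions of the day 7 section, ordered by cartilage list CPM, which stands under 2 leading genes; bars are 95% Poisson intervals. Chrdl1 is above the rest of the section on all 4 days, and Grem1 is highest, at 4.46 CPM, in the region led by Col10a1.

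Nog and Bmper also differed among the day 7 regions. Nog was 22.5 CPM (17.7 to 28.3) in 270 spots led by Mt2, Mt1, Rrad, Fbxl22 and Socs3, 20.3 CPM (16.5 to 24.7) in 464 spots led by Myh7, Myl2, Myl3, Myh2 and Myoz2, and 19.0 CPM (14.8 to 24.04) in the fat-gene region. It was 3.25 CPM (2.14 to 4.73) in 499 spots led by Tnmd, Igfn1, Mss51, Sbk2 and Gadd45a, and 4.08 CPM (2.64 to 6.02) in 218 spots led by Mmp12, Gpnmb, Myh3, Spp1 and Myl4. The high and the low regions were thus apart by more than counting error, and the 218 spots held the most macrophage and regenerating muscle RNA of the section. Bmper spanned less, from 10.3 CPM (8.11 to 13.0) in 720 spots led by Mstn, Amd2, Amd1, mt-Atp8 and Mylk4 to 23.4 CPM (18.5 to 29.3) in the spots led by Mt2. Bmp5 was highest in the spots led by Myh7, at 11.6 CPM, 2.67 times the rest (1.94 to 3.63).

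Among the day 0 regions Bmp7 was highest, at 2.36 CPM from 21 of its 49 UMIs, in 392 spots led by Fmod, Eln, Cilp, Thbs4 and Col14a1, genes of tendon and connective tissue, where it was 2.95 times the rest (1.59 to 5.39). Of the 8 members with enough UMIs there, Bmp7 was the 1 counted as higher, against 6.35% of all genes, and Nog the 1 counted as lower, against 1.11%. Bmp7 was lowest, at 0.138 CPM from 1 UMI, in 335 spots led by Tceal7, Actc1, B230312C02Rik, Mybph and Mical2, and was 0.299 CPM, 0.220 of the rest (0.0438 to 0.684), in 623 spots led by Gm42418, Malat1, Mical2, Actc1 and Mstn. In the 335 spots 4 of 8 members (Bmp7, Nog, Chrdl1 and Bmper) were 2-fold or more lower, against 12.6% of all genes, and in the 623 spots 3 of 8 (Bmp7, Nog and Chrdl1), against 4.76%. Bmp4 was 12.5 CPM (10.3 to 15.04) in the spots led by Fmod, and across all 6 regions of day 0 it ranged from 6.20 to 13.8 CPM.

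Across the 31 regions of the 4 sections, the genes whose log2 levels ran most like a member's were found for the 7 members with at least 200 UMIs in all. The points share 4 libraries, so the correlations are descriptions. For Chrdl1 they were Slc1a5, Cd1d1 and Coasy (r of 0.92, 0.90 and 0.88), and the marker list most like it was the adipocyte list (r of 0.77). For Bmper they were Tmem176b, Fosl2 and Sod3 (0.91, 0.91 and 0.90), with the stromal list at 0.78 and the adult myofibre list lowest at -0.51. For Bmp4 they were Cd209f, Clec3b and Enpep (0.91, 0.89 and 0.88), with the stromal list at 0.71. For Nog they were Cxcl14, Scn7a and Sfrp1 (0.78, 0.76 and 0.75). For Bmp2 they were Mylk, Ptgs1 and Npr1 (0.81, 0.75 and 0.75), for Bmp5 Scara5, Nova1 and Fzd4 (0.83, 0.82 and 0.81), and for Bmp6 Abcb1a, Mpdz and Ybx2 (0.75, 0.74 and 0.71). With a finer grouping 4 of these 21 genes were found again, so the lists depend on how regions were drawn.

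The rest of the pathway was read from 51 other BMP genes. At day 1, 4 of 40 with enough UMIs were 2-fold or more higher than day 0 and 8 were lower. At day 3, 9 of 42 were higher and 7 lower, and at day 7 20 of 43 were higher and 2 lower. The shares of all genes stand above, and at day 7 the pathway's median log2 ratio of 0.90 lay above the 0.65 of all genes. By TMM the counts were 5 higher and 14 lower at day 3, against 19.7% and 15.7% of all genes on that scale, and 8 higher and 3 lower at day 7, against 14.4% and 5.96%.

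Among the target genes, Id1, Id2 and Id3 were 2-fold or more higher than day 0 on all 3 days by section totals. Of 7 target genes with enough UMIs, 3 were higher and 2 lower at day 1, against 16.5% and 11.9% of all genes. At day 3, 4 of 7 were higher and 2 lower, against 32.5% and 7.59%. At day 7, 5 of 8 were higher and 0 lower, against 31.3% and 1.77%. By TMM 3 of 8, with Id2 and Id3 but not Id1 among them, were higher at day 7, against 14.4%. Id1 was 24.05, 61.3, 89.8 and 59.95 CPM at days 0, 1, 3 and 7, Id2 6.13, 18.7, 67.8 and 37.4 CPM, and Id3 33.6, 91.7, 177 and 186 CPM. Id2 was 11.1 times day 0 (9.77 to 12.6) at day 3. Id4 ran the other way, at 0.486 (0.341 to 0.678) and 0.363 (0.285 to 0.460) of day 0 at days 1 and 3, as did Msx1, a homeobox target gene, at 0.289 (0.201 to 0.405) and 0.398 (0.330 to 0.479) of day 0. At day 7 Id4 was 1.87 times day 0 (1.59 to 2.22) and Msx1 1.24 times (1.07 to 1.44), neither reaching 2-fold. Atoh8 was 2.68 times day 0 (2.34 to 3.08) at day 3 and 2.79 times (2.42 to 3.22) at day 7, and less than 2-fold higher by TMM on both days. Id1 stood at 2.55 times day 0 (2.34 to 2.78) in the day 1 section, and its relation to the levels of the ligands was not tested.

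Among the other antagonists and modulators, Bmp1, a protease that cuts chordin, was 53.6, 24.2, 84.3 and 242 CPM, and its day 7 level was 4.50 times day 0 (4.31 to 4.71). Kcp was 4.90, 0.656, 3.46 and 13.3 CPM, and Fstl3 2.26 times day 0 (1.74 to 2.92) at day 1. Nbl1 and Twsg1 were 2.54 times (2.39 to 2.69) and 2.23 times (2.09 to 2.37) day 0 at day 7. Of 12 genes of this list with enough UMIs, 6 were higher and 2 lower at day 7, against 31.3% and 1.77% of all genes. By TMM 1 of 12 (Bmp1) was higher and 2 lower at day 7, against 14.4% and 5.96%. On that scale Nbl1, Twsg1 and Kcp at day 7 and Fstl3 at day 1 were less than 2-fold above day 0. Chrdl2, the relative of Chrdl1, was 0.411 of day 0 (0.304 to 0.554) at day 3.

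Among ligands outside the 10, Gdf10 was 0.276 of day 0 (0.232 to 0.328) at day 3 and 2.90 times (2.62 to 3.21) at day 7. By TMM its day 7 level was less than 2-fold above day 0. Of the 11 receptors and co-receptors, 0 were higher and 2 lower at day 1, against 16.5% and 11.9% of all genes. At day 3, 1 was higher and 1 lower, against 32.5% and 7.59%, and at day 7 2 were higher and 0 lower, against 31.3% and 1.77%. These were the co-receptors Rgma and Hjv, lower at day 1 at 0.408 (0.355 to 0.468) and 0.463 (0.446 to 0.479) of day 0, Bmpr1b at 2.07 times (1.60 to 2.70) and Hjv at 0.405 (0.395 to 0.414) at day 3, and at day 7 Acvr1, the type I receptor gene mutated in the inherited form of HO, at 2.06 times (1.85 to 2.31) and Acvr2b, with fewer UMIs, at 2.02 times (1.37 to 3.02). By TMM the receptor counts were 0 higher and 4 lower at day 3 (Bmpr1a, Rgma, Rgmb and Hjv), against 19.7% and 15.7% of all genes. At day 7 they were 0 higher and 1 lower (Hjv), against 14.4% and 5.96%. Of the intracellular inhibitors, Smad7 was 2.84 times day 0 (2.46 to 3.29) at day 3, and at day 7 Smad6 was 2.13 times (1.75 to 2.60) and Bambi, a decoy receptor, 4.23 times (3.60 to 4.99). Smad5, a signal carrier, was 2.17 times day 0 (2.02 to 2.33) at day 3. Of 9 Smads and intracellular inhibitors with enough UMIs, 3 were higher at day 3 and 4 at day 7. The shares of all genes were 32.5% and 31.3%. None was lower on either day, against 7.59% and 1.77%. By TMM 1 of 9 was higher at day 3 and 2 at day 7, against 19.7% and 14.4%. On that scale Smad5 and Smad7 at day 3 and Smad6 at day 7 were less than 2-fold above day 0.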

How the data were processed

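The deposited files hold raw UMI counts per gene and spot, made by the authors with Space Ranger (version 1.2.0 per the file headers; the study's methods name another version) on mm10 per the labels, with spots over tissue chosen from the image. Sections shared 1539 to 2311 spot barcodes in pairs, since barcodes are array positions. Counts were summed per section and per region and scaled to CPM of that total, with exact Poisson intervals at 95% and exact conditional binomial intervals for ratios. With 1 section per day no p-value was computed. A gene under 3 UMIs was entered at 3, and where that turned the direction no ratio was given. Calls needed 20 UMIs and a 2-fold difference. Regions came from Leiden clustering per section (Scanpy 1.11.5, 10000 per spot, log1p, 2000 variable genes, 30 components, 15 neighbours, resolution 0.5, seed 1), without the BMP, mitochondrial and haemoglobin genes. Leading genes were the 5 with the highest fold among genes of at least 50 CPM in the region. Shares of spots were computed exactly for a depth of 2000 UMIs. Likeness was Pearson's r of log2(CPM + 1). Alternatives used edgeR 4.0.16 TMM factors, DESeq2 1.42.0 size factors and the settings named in the closing section. Named pathway genes had at least 200 UMIs in all and a 2-fold difference from day 0 on a day. No doublet caller or deconvolution was run, and spot positions, images and the single-cell part were not used here. Computations were tested on simulated data. The members and gene lists were chosen with earlier results of these data known. Gene and promoter positions are RefSeq's for GRCm38.p6. One pathway gene is not reported here by name.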

Additional observations from a re-analysis of the deposited data

How the results depend on the processing

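No paired analysis was possible because each day had 1 section. Depth limits the sparse genes most, and the floor of 3 UMIs stood for 0.179 CPM at day 1 but 0.0535 CPM at day 3. Other scalings shifted every log2 ratio to day 0 equally, TMM by -0.21, -0.55 and -0.61 at days 1, 3 and 7 and DESeq2 size factors by -0.19, -0.56 and -0.63. Members 2-fold higher at day 1 numbered 0 with TMM, DESeq2 or with the total left after mitochondrial, haemoglobin and myofibre genes are taken out, and 2 without the filter on low counts. Members lower at day 3 numbered 5 with TMM or DESeq2, adding Bmp2, Bmp4 and Bmp6, and at day 7 1 with either and at 1.5-fold. From day 3 to day 7, 6 were higher and 1 lower with the reduced total, and 6 higher at 1.5-fold, against 3 and 2. Pathway genes at day 3 numbered 5 higher and 14 lower with TMM or DESeq2, 11 lower with the reduced total, and 15 higher and 12 lower at 1.5-fold. At day 1 13 were lower at 1.5-fold, and at day 7 8 were higher with TMM or DESeq2. Shares of all genes were not computed at 1.5-fold, with DESeq2, with the reduced total or without the filter. The counts in those settings are thus not read as results about the members or the pathway. Antagonist over ligand UMIs without Bmp4 were 0.711, 1.35, 6.04 and 1.96, and without Bmper, a setting chosen after seeing the data, 0.242, 0.648, 1.54 and 0.692, all with the same order of days 0 and 3 as lowest and highest. By shares of spots, 1 member was lower at day 1 when thinned to 1000 UMIs, 0 were higher when thinned to 4000 or unthinned, and 7 were lower unthinned, where the day 1 section was the shallowest. Members lower at day 3 numbered 2 at 4000 and unthinned, and at day 7 1 unthinned. Unthinned, 11, 13 and 12 pairs reached 10 spots at days 0, 3 and 7. In the regions richest in adipocyte RNA, 1 member was higher at days 0 and 1 at resolution 1, and at day 1 4 with the sections clustered together and 1 with the reduced total. With the sections clustered together the day 3 region held 1071 spots, 1 member was higher there, and Bmp5 and Chrdl1 turned to 0.924 and 0.785 of the rest. In the day 3 region richest in macrophage RNA, 1 member was higher at resolution 1 and with the sections together, and 1 was lower at resolution 1. In the day 7 cartilage region 2 were higher and 1 lower at resolution 1, and 2 were lower with the reduced total. The cause of these shifts was not tested. Of the genes most like a member, 4 of 21 recurred at resolution 1.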
